A study of Mus musculus with 6 samples.

Results

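Proteasome subunit genes were followed in RNA from the prefrontal cortex (PFC) of WT and P301S Tau mice. The genes were taken by name, as every gene whose symbol is Psm followed by a letter from a to g and a number, which gave 48 of the 54429 genes counted. They comprise the alpha ring (8 genes), the structural (4) and catalytic (3) subunits of the beta ring, the immunoproteasome and thymus forms of the catalytic subunits (4), the ATPases (6) and non-ATPases (11) of the regulatory particle, assembly chaperones of the regulatory particle (3) and of the core (4), activators (4) and an inhibitor (1). Of the 48 genes, 47 had enough counts to be tested. The exception was Psma8, an alpha subunit known from germ cells, with 8 and 6 counts in the WT libraries, 12 and 8 in the Tau libraries and 2 and 6 in the UNC0642 libraries.

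The study compared 3 groups of 2 libraries, biological duplicates of PFC tissue at an age of 6 months. WT mice, of the (C57BL/6 x C3H) background, and PS19(P301S) mice, here called Tau, were given vehicle. The third group, here called UNC0642, were PS19(P301S) mice given UNC0642, an inhibitor of the H3K9 methyltransferases EHMT1 and EHMT2, at 1 mg/kg in 3 daily injections. Tau and UNC0642 mice therefore share the transgene, a mutant human tau driven by the mouse prion protein (Prnp) promoter, in a single transgenic line, and no WT mice given UNC0642 were analysed here. The comparisons asked which genes differ in the tauopathy model and whether the inhibitor brings them back. The libraries are of bulk tissue, in which fewer cells of a type and less RNA per cell cannot be told apart.

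The proteasome is the main protease of the cytosol and nucleus, and it degrades proteins marked with ubiquitin. Its core particle is a barrel of stacked rings, with the active sites on the beta subunits inside and a gate formed by the alpha subunits. The regulatory particle sits on the barrel's end, where its non-ATPase subunits bind and cut off the ubiquitin chain and its ATPase ring unfolds the substrate and threads it in. Interferon exchanges the catalytic subunits for those of the immunoproteasome, which cuts peptides suited to MHC class I. When proteasome activity falls short, the transcription factor Nrf1 (gene Nfe2l1) is known to raise the subunit genes together. In tauopathies the proteasome is studied because tau is among the proteins it can degrade.

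Total counts ran from 17005664 to 28972176 per library, and the 48 genes took 0.277% to 0.316% of them. The check genes touched the groups in 2 ways. Xist and Ddx3y gave the female pattern in WT replicate 2 and both Tau libraries, and the male pattern in the library labelled WT replicate 1 and both UNC0642 libraries, so that the comparison of UNC0642 with Tau cannot be told apart from sex. Prnp, whose promoter drives the transgene, stood at 1652 CPM (counts scaled to the size of the library) in the library labelled WT replicate 1 and at 873 CPM in WT replicate 2, against 1470 to 1694 CPM in the 4 transgenic libraries. Mapt, the mouse tau gene, was 576 and 449 CPM in these WT libraries and 571 to 614 CPM in the others. The targets of the inhibitor did not separate the groups in these libraries, at 43.6 to 49.0 CPM for Ehmt1 and 131 to 161 CPM for Ehmt2. With more mice, the study reported higher Ehmt2 mRNA by quantitative PCR in Tau than in WT. It also reported stronger EHMT2 staining of neurons in Tau, and little change in Ehmt1 mRNA. Neuronal markers were abundant in every library, at a summed 5457 to 6407 CPM. Markers of oligodendrocytes were highest in Tau replicate 2 for all 8 genes of the list, whose summed level was 5667 CPM there and 1489 to 3025 CPM in the other libraries. Because the library labelled WT replicate 1 goes against its label in Prnp, the main results that rest on WT are also given without it. The WT library then left has the female pattern, so that UNC0642 against WT cannot be told apart from sex in those values. Without WT replicate 2 the same holds for Tau against WT.

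The levels of the subunits, as CPM per kilobase of exon averaged over the 6 libraries, differed by role, with overlap between the roles. Exon length is that of all annotated exons, which for Psmb3 was 2300 bases against 766 in its longest coding transcript. The order of the roles therefore depends in part on the annotation. ATPases of the regulatory particle had the highest median, 48.6, and Psmc5 was the highest gene of all at 110.4. Structural beta subunits had a median of 30.5, non-ATPase subunits 29.4, catalytic beta subunits 23.8 and alpha subunits 22.6. With the counts of near-identical copies added, described further on, the median of the catalytic subunits was 36.9, above the structural and non-ATPase subunits, and that of the alpha subunits 24.0. Factors that are not part of the finished 26S proteasome had lower medians, 8.29 for the chaperones of the regulatory particle and 6.64 for those of the core, and Psmf1, the inhibitor also known as PI31, was at 4.61. The lid subunit Psmd11, at 5.455, lay among them. Activators ranged from 1.998 for Psme2 to 26.1 for Psme3, the nuclear form of the PA28 cap. The immunoproteasome group had the lowest median, 0.467, although its member Psmb10 reached 19.1.

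**Figure D1:**
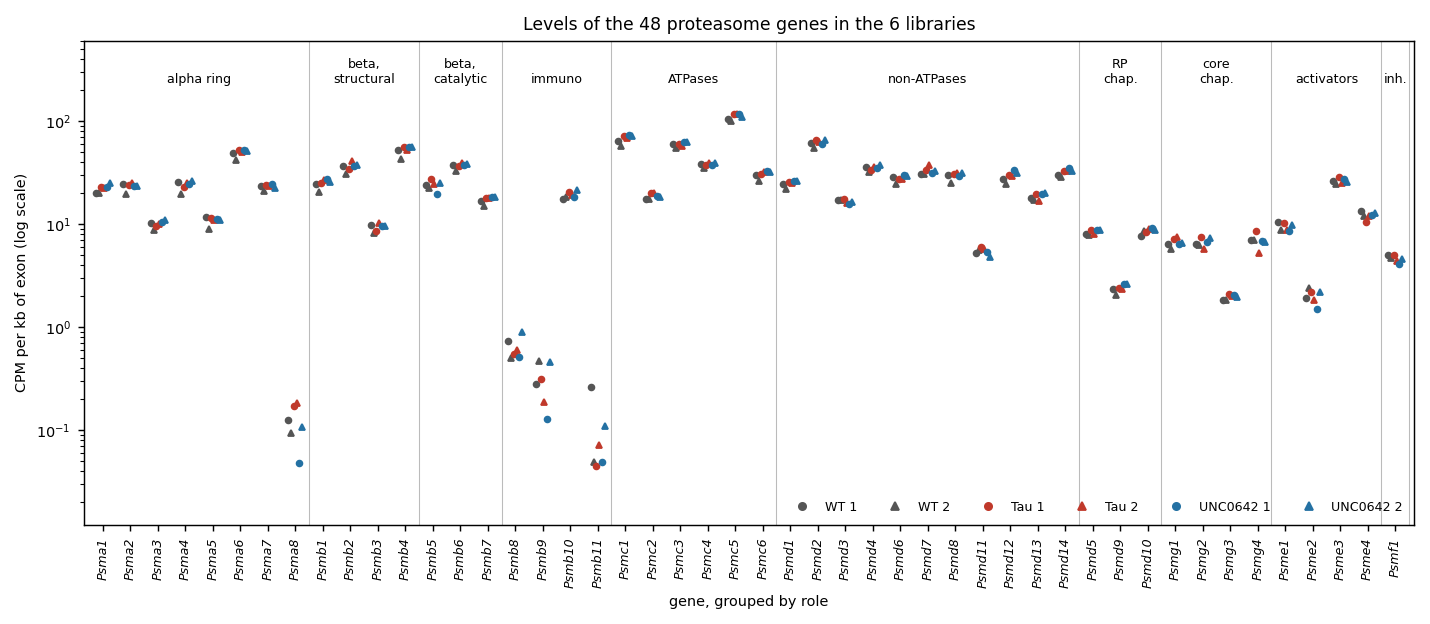
Levels of the 48 proteasome genes, in CPM per kilobase of exon on a log scale, with the genes on the horizontal axis grouped by role. Each point is 1 of the 6 libraries (grey WT, red Tau, blue UNC0642; circles replicate 1, triangles replicate 2). Psmc5 is highest, and Psma8, Psmb8, Psmb9 and Psmb11 lie more than 10-fold below the other subunits of their rings.

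In Tau against WT, most proteasome genes were a little higher in Tau, but none of the 47 passed the study's threshold, an unadjusted p-value under 0.05 together with a fold change of at least 1.2. Over all genes tested 3.72% passed it as higher and 6.1% as lower. The log2 fold change was above 0 for 39 of the 47 genes, as it was for 50% of all genes, and its median was 0.11 against 0.00 over all genes. In edgeR's test 4 genes, Psmc1, Psmc2, Psmc5 and Psmd7, had a p-value under 0.05 with smaller folds, a share of 4 in 47 where 12.4% of all genes had one. With adjusted p-values none of the 47 passed, and 0.157% of all genes did. DESeq2 and limma-voom likewise called 0 of them, with 1 and 4 genes at an unadjusted p under 0.05. Both Tau libraries were above both WT libraries for 21 genes and below them for 1, against 21.9% and 21.4% of all genes.

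Within the regulatory particle all 6 ATPases had a positive log2 fold change, with a median of 0.17. Psmc5, which has the smallest p of the 47 genes, measured 144 and 140.3 CPM in WT, 163 and 161 CPM in Tau, and 163 and 152 CPM in UNC0642. Both WT libraries were thus below the other 4. Its log2 fold change in Tau against WT was 0.19 ± 0.07 (SE, n = 2 per group, edgeR adjusted p = 0.36). Psmc1 measured 125 and 111 CPM in WT, 137 and 132 CPM in Tau, and 141 and 139 CPM in UNC0642. Here too the WT pair was lowest, and the log2 fold change in Tau was 0.19 ± 0.08 (edgeR adjusted p = 0.387). Psmc2 measured 87.4 and 88.7 CPM in WT, against 101 and 99.6 CPM in Tau, with intermediate values in UNC0642 (0.19 ± 0.08, edgeR adjusted p = 0.371). The other ATPases had log2 fold changes of 0.05 (Psmc3), 0.07 (Psmc4) and 0.15 (Psmc6).

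Of the 11 non-ATPase subunits 10 had a positive log2 fold change in Tau against WT and the median was 0.13. Psmd7, the lid subunit that pairs with the deubiquitinase Psmd14, measured 69.0 and 69.8 CPM in WT, 75.9 and 83.9 CPM in Tau, and 71.3 and 73.8 CPM in UNC0642. Tau was the highest group, without overlap, and the difference from WT was 0.20 ± 0.09 on the log2 scale (edgeR adjusted p = 0.381). Psmd14 itself was at 0.15, and the scaffold subunits Psmd1 and Psmd2, which hold ubiquitin receptors and shuttles, were at 0.11 and 0.15. The remaining lid and base subunits lay between -0.02 for Psmd3 and 0.19 for Psmd12.

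In the core particle, the 7 alpha subunits tested had log2 fold changes of 0.03 (Psma3) to 0.17 (Psma6) in Tau against WT, the structural beta subunits 0.07 (Psmb3) to 0.19 (Psmb1), and the catalytic subunits 0.10 (Psmb6), 0.17 (Psmb5) and 0.17 (Psmb7). All 14 were above 0 and none had a p under 0.05. Assembly chaperones also had positive log2 fold changes, up to 0.27 ± 0.16 for Psmg1, with medians of 0.09 for the regulatory particle (Psmd5, Psmd9, Psmd10) and 0.12 for the core (Psmg1 to Psmg4). Of the 4 activators 3 had negative log2 fold changes in Tau, with a median of -0.06, as had 3 of the 4 genes of the immunoproteasome group, with a median of -0.33. These last were the low-count genes Psmb8, Psmb9 and Psmb11, with SEs of 0.37, 0.57 and 0.84, while Psmb10 stood at 0.14. The median of that group was 0.15 without the library labelled WT replicate 1 and -0.25 without WT replicate 2. With either WT library left out, 2 of the 4 activators were above 0, with medians of 0.0079 and -0.0547. Psme4, which codes for the PA200 cap, measured 111 and 101 CPM in WT, 88.1 and 100.2 CPM in Tau, and 102 and 106 CPM in UNC0642. It was the gene whose Tau libraries both lay below WT (-0.17 ± 0.09, edgeR adjusted p = 0.475), and it stood at -0.11 without the library labelled WT replicate 1 and at -0.23 without WT replicate 2. Psmf1 stood at -0.04 ± 0.12.

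**Figure D2:**
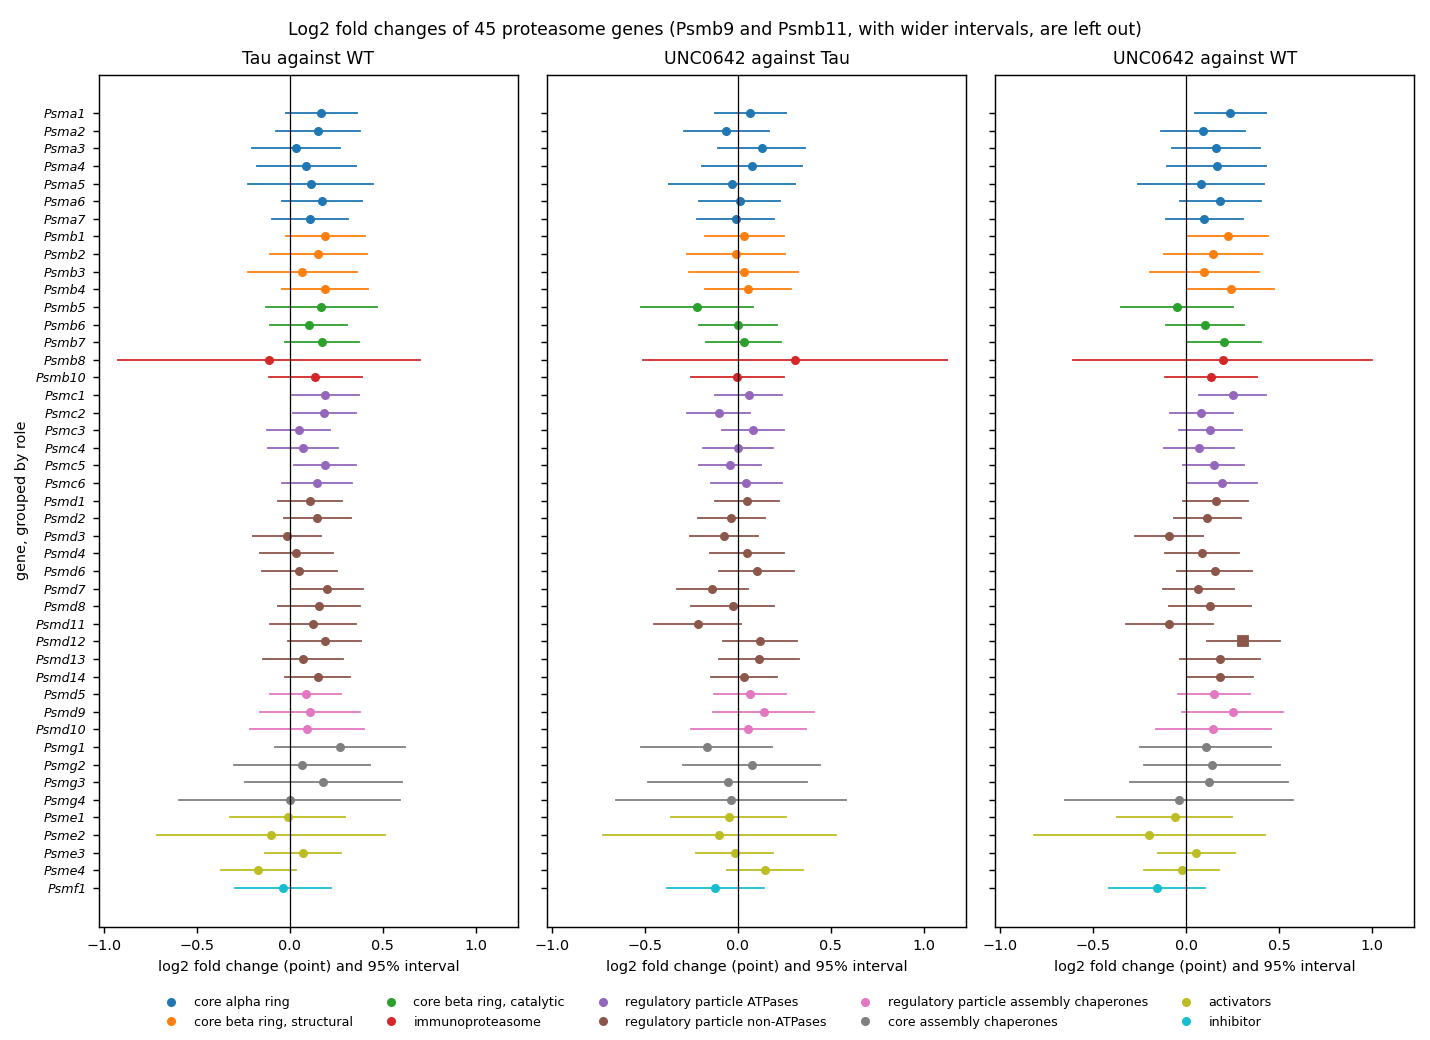
Log2 fold changes (points) with 95% intervals (lines) of 45 proteasome genes in each of the 3 comparisons, coloured by role, with the gene that passed the threshold as a square. In Tau against WT and UNC0642 against WT most points lie to the right of 0 while most intervals cross it, and the square is Psmd12 at 0.31 in UNC0642 against WT.

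In the proteasome genes the WT libraries differed from each other more than the Tau or the UNC0642 libraries did. Of the 47 genes, 29 were lowest of all 6 libraries in WT replicate 2, which is 61.7% against 18.7% of all genes tested. Their median deviation from the mean over the libraries was -0.14 on the log2 scale in WT replicate 2 and -0.0002 in the library labelled WT replicate 1, against 0.05 and 0.02 in Tau and 0.03 and 0.07 in UNC0642. The summed level of the 48 genes was 3021 CPM in the library labelled WT replicate 1 and 2736 CPM in WT replicate 2, while the other 4 libraries ran from 3104 to 3160 CPM. The median absolute difference between replicates was 0.17 (log2) in WT, 0.07 in Tau and 0.07 in UNC0642 for these genes, and 0.19, 0.19 and 0.16 for all genes. The difference was below that of all genes in each group, least so in WT.

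**Figure D3:**
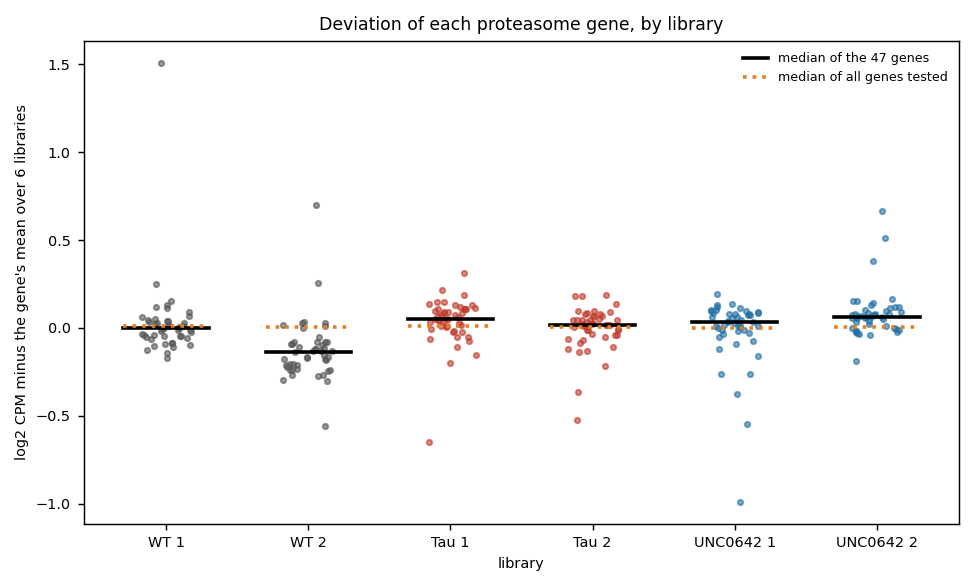
Deviation of each of the 47 tested genes from its mean over the 6 libraries, in log2 CPM, by library. Black bars are the medians of these genes and dotted bars those of all genes tested: WT replicate 2 is at -0.14, and the other 5 libraries lie between -0.0002 and 0.07.

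Leaving out either WT library moved the result in Tau against WT in opposite ways, with the remaining WT library assumed to vary like the other groups. Without the library labelled WT replicate 1, 44 of 48 genes were higher in Tau, the median log2 fold change was 0.19, and 8 genes passed the threshold as higher against 4.38% of all genes. They were the alpha subunits Psma2, Psma4 and Psma6, the beta subunits Psmb1 and Psmb4, the ATPase Psmc1 and the lid subunits Psmd8 and Psmd12. The largest was Psmb4, at 0.35 ± 0.10 (edgeR adjusted p = 0.304). Without WT replicate 2, 34 of 48 were higher, the median was 0.04, and Psmb4 stood at 0.05 ± 0.09, while the 1 gene called was Psmb11, as lower (-2.20 ± 0.78, edgeR adjusted p = 0.307). By role, the alpha ring had a median of 0.28 without the library labelled WT replicate 1 and 0.01 without WT replicate 2. The ATPases stood at 0.19 and 0.09, and the immunoproteasome group at 0.15 and -0.25. Of the genes with a p under 0.05 against both WT libraries, Psmc5 stood at 0.21, Psmc2 at 0.17 and Psmd7 at 0.19 without the library labelled WT replicate 1.

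**Figure D4:**
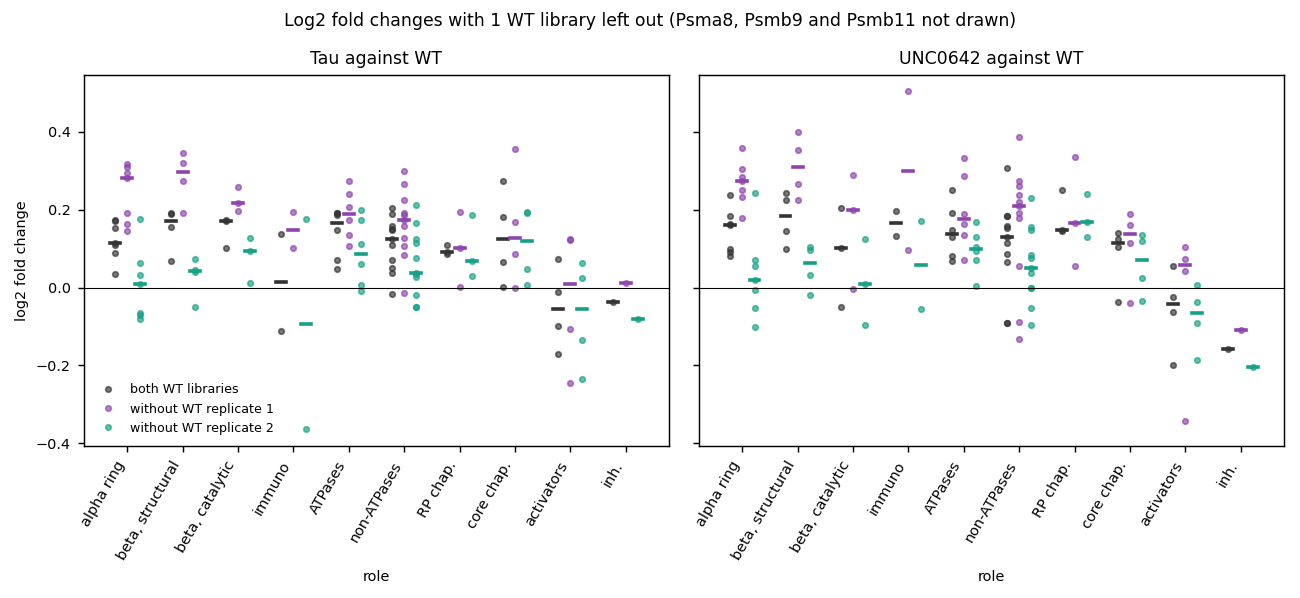
Log2 fold changes of the proteasome genes by role against both WT libraries (black), without WT replicate 1 (purple) and without WT replicate 2 (green). Points are genes and bars the medians of the genes drawn. In the alpha and structural beta rings the purple points lie above the green ones, with alpha ring medians of 0.28 and 0.01 in Tau against WT.

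No proteasome gene passed the threshold in UNC0642 against Tau, a comparison in which 3.73% of all genes passed it as higher and 3.95% as lower. None had a p under 0.05 in edgeR, DESeq2 or limma-voom, against 8.86% of all genes in edgeR. No adjusted p-value was under 0.05 either (0.0196% of all genes). The log2 fold change was above 0 for 26 and below 0 for 21, its median was 0.03, and 49.6% of all genes were above 0. With a term for sex-linked expression 38 were below 0 and the median was -0.12, so that no direction is given for these genes as a set. Groups did not overlap for 10 genes higher and 5 lower in UNC0642, against 20.4% and 20.9% of all genes. The 95% interval lay within a fold change of 1.5 in either direction for 42 genes and within 1.2 for 20, so that larger changes were outside the interval for these.

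The smallest p in UNC0642 against Tau belonged to Psmd11, a lid subunit that helps to join the core and regulatory particles. It measured 33.6 and 35.4 CPM in WT, 38.5 and 36.6 CPM in Tau and 34.3 and 30.5 CPM in UNC0642. Both treated libraries were below both Tau libraries, by -0.22 ± 0.11 on the log2 scale (edgeR adjusted p = 0.592). For Psmd11 every library with the female pattern of Xist and Ddx3y lay above every library with the male pattern. The part of sex was not tested. Psmc2 and Psmd7, which were higher in Tau than in WT, were lower in UNC0642 than in Tau without overlap, at -0.10 ± 0.08 and -0.14 ± 0.09. Psme4 had the opposite sign from its Tau against WT difference, at 0.15 ± 0.09. Both comparisons use the same Tau libraries, so that a high or low Tau value gives opposite signs in them. Psmc1 and Psmc5, the other ATPases with a p under 0.05 in Tau, stood at 0.06 ± 0.08 and -0.04 ± 0.07.

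In UNC0642 against WT 1 gene, Psmd12, passed the threshold as higher and none as lower, against 3.77% and 5.69% of all genes. The median log2 fold change of the 47 genes was 0.13 against -0.01 over all genes, and 37 were above 0 where 48% of all genes were. In edgeR 8 had a p under 0.05 (12.1% of all genes), namely Psma1, Psmb1, Psmb4, Psmb7, Psmc1, Psmc6, Psmd12 and Psmd14, and none an adjusted p under 0.05 (0.216% of all genes). The treated libraries were above both WT libraries for 24 genes and below them for 3, against 22.1% and 22.3% of all genes. Those below were Psmd3, Psmg4 and Psmf1.

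Psmd12, a lid subunit of the regulatory particle (chromosome 11, 107479484 to 107504362, plus strand, GRCm38), measured 72.9 and 65.4 CPM in WT, 79.5 and 78.1 CPM in Tau, and 88.7 and 82.5 CPM in UNC0642. The 3 groups did not overlap, with WT lowest and UNC0642 highest. The log2 fold change was 0.31 ± 0.09 in UNC0642 against WT, a 1.24-fold difference with a 95% interval of 1.08 to 1.42 (edgeR adjusted p = 0.223). It was 0.19 ± 0.09 in Tau against WT and 0.12 ± 0.09 in UNC0642 against Tau. Without WT replicate 2 the difference from WT was 0.23 and without UNC0642 replicate 1 it was 0.26, and neither passed the threshold. Without the library labelled WT replicate 1 it was 0.39 and passed.

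Removal of that WT library raised the count in UNC0642 against WT to 11 genes, all higher, against 4.27% of all genes. They were Psma3, Psma4, Psma6, Psmb1, Psmb4, Psmb7, Psmc1, Psmc6, Psmd8, Psmd9 and Psmd12. Both comparisons then rest on the same single WT library, which has the female pattern, while both UNC0642 libraries have the male pattern. Psmb4 was again the largest, at 0.40 ± 0.10 (edgeR adjusted p = 0.167). Without WT replicate 2 the count was 0 and the median 0.04.

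Immunoproteasome subunits were set beside the constitutive subunits that they replace. Psmb8, which replaces the chymotrypsin-like subunit Psmb5, lies at chromosome 17, 34197721 to 34201454 (GRCm38), and had 63 and 43 counts in WT, 52 and 35 in Tau and 29 and 68 in UNC0642, or 1.68 to 2.999 CPM. Per kilobase of exon it stood at 1.998% to 3.58% of Psmb5, or at 0.861% to 1.71% with the counts of the near-identical copy of Psmb5 added to it. Psmb9, which replaces the caspase-like subunit Psmb6, lies beside it at 34181987 to 34187764. It had 26 and 44 counts in WT, 32 and 12 in Tau and 8 and 38 in UNC0642, and stood at 0.348% to 1.43% of Psmb6. For both genes UNC0642 replicate 2 was more than 1.5 times as high as UNC0642 replicate 1, and the 3 groups overlapped.

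Psmb10, the counterpart of the trypsin-like subunit Psmb7, did not share this low level. It lies apart from them, on chromosome 8 at 105935735 to 105938444, and measured 29.9 and 31.4 CPM in WT, 35.0 and 32.4 CPM in Tau and 31.0 and 36.2 CPM in UNC0642. Per kilobase of exon that was 99.4% to 123% of Psmb7. This rests on the length of all annotated exons, 1705 bases for Psmb10 and 3421 for Psmb7. In CPM alone Psmb10 was below Psmb7 in every library. The lengths were 3381 bases for Psmb8 and 899 for Psmb5, and 3660 for Psmb9 and 1872 for Psmb6. The shares of Psmb8 and Psmb9 were therefore larger in CPM. In Tau against WT, Psmb8 had a log2 fold change of -0.11 ± 0.37, Psmb9 of -0.55 ± 0.57 and Psmb10 of 0.14 ± 0.11, none with a p under 0.05 in edgeR. Without the library labelled WT replicate 1 they stood at 0.19, -0.87 and 0.10, and without WT replicate 2 at -0.36, -0.13 and 0.18, so that the sign of Psmb8 turned with the WT library used. Against Tau, UNC0642 gave 0.31 ± 0.37, 0.24 ± 0.59 and -0.00 ± 0.11, and against WT 0.20 ± 0.36, -0.31 ± 0.56 and 0.13 ± 0.11, again none with a p under 0.05. Without the library labelled WT replicate 1 the last values were 0.50, -0.63 and 0.10, and without WT replicate 2 -0.06, 0.11 and 0.17. The 95% interval of Psmb9 in Tau against WT ran from -1.81 to 0.71, or from 0.286-fold to 1.64-fold. Psmb11, the thymus form, had 32 counts in the library labelled WT replicate 1 and 4 to 12 in the other 5 libraries.

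**Figure D5:**
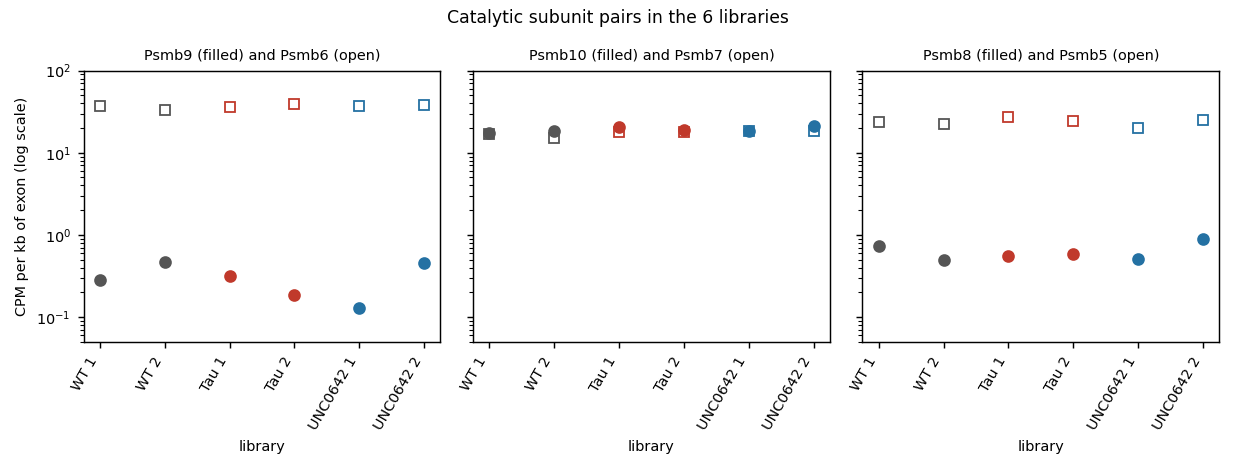
Levels of the immunoproteasome subunits (filled circles) and the constitutive subunits that they replace (open squares), in CPM per kilobase of exon on a log scale, in the 6 libraries (grey WT, red Tau, blue UNC0642). Psmb9 and Psmb8 lie at 0.348% to 1.43% of Psmb6 and 1.998% to 3.58% of Psmb5, while Psmb10 and Psmb7 overlap per kilobase, though not in CPM.

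Of the constitutive partners, Psmb5 measured 21.5 and 20.1 CPM in WT, 24.7 and 22.0 CPM in Tau, and 17.8 and 22.3 CPM in UNC0642. Psmb6 measured 70.1 and 61.4 CPM, 67.9 and 73.4 CPM, and 69.6 and 71.6 CPM in the same order. Psmb7 measured 57.4 and 51.1 CPM, 61.5 and 61.0 CPM, and 62.5 and 62.6 CPM, the lowest of its values being again WT replicate 2. Between UNC0642 and Tau they differed by -0.22 ± 0.14, 0.00 ± 0.09 and 0.03 ± 0.09 on the log2 scale.

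Neighbouring genes limit some of these values, since it is not given whether reads were counted by strand. Exons of Psmb9 share 212 bases with Tap1 on the opposite strand, which had 1.24 to 3.49 CPM, and those of Psmb8 share 498 bases with the antisense gene Gm20496. Psmd9 shares 1849 bases, 25.5% of its exon length, with Gm26745 on the opposite strand. Psmb5 contains the microRNA gene Mir686 on its own strand.

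Several subunits have near-identical copies elsewhere in the genome, with counts of their own in the files, so that reads may have been split between copy and gene. Coding stretches of 60 bases with the most differences are given for 3 pairs, to show how few bases tell them apart. Capitals mark the bases that differ, and sequences are those of GENCODE M21 transcripts, written 5′ to 3′, with positions on GRCm38.
Psma5: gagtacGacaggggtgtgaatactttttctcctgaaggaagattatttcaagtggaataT
Gm8394: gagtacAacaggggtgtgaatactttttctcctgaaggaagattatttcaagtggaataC
Psmb5: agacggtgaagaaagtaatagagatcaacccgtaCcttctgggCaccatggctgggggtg
Gm3375: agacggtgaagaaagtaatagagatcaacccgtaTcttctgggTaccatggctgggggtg
Psme2: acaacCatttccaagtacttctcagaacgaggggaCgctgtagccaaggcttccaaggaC
Psme2b: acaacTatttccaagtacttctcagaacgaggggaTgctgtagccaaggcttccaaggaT

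Over the whole coding sequence Psma5 and the processed pseudogene Gm8394 (chromosome 10, 85313488 to 85314439, plus strand) differed at 8 of 723 bases, of which bases 19 to 78 are shown. Psmb5 and the processed pseudogene Gm3375 (chromosome 7, 3181093 to 3181888, plus strand) differed at 8 of 792 bases, with 263 to 322 shown. Psme2 and Psme2b (chromosome 11, 48945354 to 48946190, minus strand), which is annotated as protein-coding, differed at 5 of 717 bases, with 484 to 543 shown. The copies were counted as often as the genes or more: summed over the libraries, Gm8394 had 146% of the counts of Psma5, Gm3375 105% of those of Psmb5, and Psme2b 339% of those of Psme2. For Psma3, the copy Gm13835 had 142%. The levels printed for these 4 genes thus depend on how such reads were assigned.

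With the counts of all copies added, an alternative chosen after the data were seen, the mean level rose from 14.3 to 52.0 CPM for Psma5, from 39.0 to 96.1 CPM for Psma3, from 21.4 to 44.9 CPM for Psmb5 and from 3.53 to 15.6 CPM for Psme2. Psmb5 with its copy measured 41.7 and 38.4 CPM in WT, 45.7 and 43.7 CPM in Tau, and 53.1 and 46.5 CPM in UNC0642. The 3 groups did not overlap on this count, unlike those of Psmb5 alone. Its log2 fold change in UNC0642 against WT was 0.31 ± 0.10 (edgeR adjusted p = 0.274), which passed the threshold. Against Tau it turned from -0.22 ± 0.14 to 0.15 ± 0.10. The log2 fold changes of Psma3, Psma4, Psma5, Psmb3, Psmc1, Psmd2 and Psme2 with copies did not pass the threshold in any comparison.

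Genes that work with the proteasome but carry other symbols were taken as a list of 13, among them the ubiquitin receptor Adrm1, the small subunit Sem1, the deubiquitinases Usp14 and Uchl5 and the core maturation factor Pomp. Of the 13, 10 were higher in Tau than in WT, with a median log2 fold change of 0.09, and none passed the threshold. Over all genes tested, 50% were higher and 3.72% and 6.1% passed as higher and lower. In UNC0642 against Tau 1 of the 13 passed the threshold, as lower (3.95% of all genes did): Fbxo7, a ubiquitin ligase subunit that binds Psmf1. It measured 33.8 and 36.6 CPM in WT, 37.8 and 44.4 CPM in Tau, and 34.1 and 30.6 CPM in UNC0642. Its log2 fold change in UNC0642 against Tau was -0.34 ± 0.12 (edgeR adjusted p = 0.461). For Fbxo7 every library with the female pattern of Xist and Ddx3y lay above every library with the male pattern. The part of sex was not tested. In UNC0642 against WT 1 of the 13 passed, as higher (3.77% of all genes did): Ublcp1, the phosphatase of the proteasome (22.1 and 21.5 CPM in WT, 23.7 and 33.5 CPM in UNC0642, 0.40 ± 0.15, edgeR adjusted p = 0.336). Its UNC0642 libraries differed, with replicate 2 higher, and it did not pass with either WT library left out (0.42 and 0.38).

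Of 11 genes that control transcription of the proteasome, Nfe2l1 stood at 0.08 ± 0.07 in Tau against WT and at -0.00 ± 0.07 in UNC0642 against Tau. The small Maf gene Mafk, whose product pairs with Nrf1, measured 8.40 and 8.59 CPM in WT, 11.2 and 11.9 CPM in Tau, and 10.2 and 13.1 CPM in UNC0642. Both other groups were above WT, and it rose in Tau (0.44 ± 0.16, edgeR adjusted p = 0.342) and in UNC0642 against WT (0.46 ± 0.16, edgeR adjusted p = 0.309). Without the library labelled WT replicate 1 these values were 0.42 and 0.44, and neither passed. Ddi2, the protease that releases Nrf1, measured 71.3 and 73.0 CPM in WT, 82.3 and 76.8 CPM in Tau, and 89.6 and 89.0 CPM in UNC0642, and rose in UNC0642 against WT (0.31 ± 0.08, edgeR adjusted p = 0.186), also without the library labelled WT replicate 1 (0.29). Its groups did not overlap, in the same order as for Psmd12. Ddi1, at under 1 CPM in every library, passed the threshold in UNC0642 against Tau with a log2 fold change of 1.76 ± 0.72 (edgeR adjusted p = 0.524).

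Among ubiquitin genes, E1 enzymes and shuttle factors, the ubiquitin-activating enzyme Uba6 measured 50.1 and 61.4 CPM in WT, 65.9 and 67.3 CPM in Tau, and 76.9 and 77.0 CPM in UNC0642. It rose in UNC0642 against WT (0.47 ± 0.10, edgeR adjusted p = 0.126), and passed at 0.32 without the library labelled WT replicate 1 and at 0.62 without WT replicate 2. Ubqln2, a shuttle that carries substrates to the proteasome, was lower in UNC0642 than in Tau and than in WT, at 67.3 and 99.99 CPM in WT, 89.6 and 75.5 CPM in Tau and 66.0 and 50.6 CPM in UNC0642 (-0.51 ± 0.18 and -0.52 ± 0.18, edgeR adjusted p = 0.48 and adjusted p = 0.292). Every library with the female pattern of Xist and Ddx3y lay above every library with the male pattern, and the part of sex was not tested. The difference from WT was -0.78 without the library labelled WT replicate 1, and -0.21 without WT replicate 2, where it did not pass.

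Among interferon and antigen presentation genes that work beside the immunoproteasome, the MHC class I light chain B2m was higher in Tau than in WT (37.0 and 39.3 CPM in WT, 50.8 and 51.3 CPM in Tau, 0.42 ± 0.11, edgeR adjusted p = 0.235). In UNC0642 it measured 45.5 and 55.9 CPM and was higher than in WT by 0.41 ± 0.11. Without the library labelled WT replicate 1 the values were 0.38 in Tau and 0.37 in UNC0642, and both passed. H2-D1, a class I heavy chain, measured 23.3 and 15.1 CPM in WT, 17.7 and 21.8 CPM in Tau, and 30.4 and 33.3 CPM in UNC0642. It was higher in UNC0642 than in Tau (0.69 ± 0.19, edgeR adjusted p = 0.395) and than in WT (0.73 ± 0.19, edgeR adjusted p = 0.179). The difference from WT was 1.08 without the library labelled WT replicate 1 and 0.45 without WT replicate 2. For H2-D1 every library with the male pattern of Xist and Ddx3y lay above every library with the female pattern. The part of sex was not tested. H2-K1 passed against WT although the groups overlapped, at 16.6 and 11.1 CPM in WT and 15.5 and 33.1 CPM in UNC0642 (0.82 ± 0.30, edgeR adjusted p = 0.319). It was 1.14 without the library labelled WT replicate 1, and 0.56 without WT replicate 2, where it did not pass. Tap1, Tap2, Tapbp, Erap1, Irf1, Nlrc5 and Ifngr1 did not pass in any comparison. The 8 microglial markers summed to 284 and 326 CPM in WT, 352 and 358 CPM in Tau and 317 and 309 CPM in UNC0642, and their part in these differences was not tested.

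Promoters of 40 of the 48 genes, 43 sequences in all, were found in RefSeq's table for GRCm38.p6, each with 250 bases before and 50 after the transcription start. They were searched on both strands for 3 motifs. The core of the antioxidant response element, which Nrf1 and Nrf2 bind (TGACNNNGC), was in 6 of the 43, or 14%, against 12.4% of all 32851 promoters. Those were the promoters of Psmb5, Psmb6, Psmc6, Psmd9, Psmd12 and Psme4. The CCAAT box was in 14 of the 43 (32.6%, against 37.4% of all), 5 of them from the alpha ring genes Psma1, Psma2, Psma3, Psma6 and Psma7. The core of the interferon-stimulated response element (GAAANNGAAA) was in 5 (11.6%, against 3.44% of all), those of Psmb3, Psmd4, Psmd9, Psme1 and Psmg4, and in none of the 4 promoters of the immunoproteasome group. A match gives the letters only, not a bound site.

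Stretches of 60 bases with the antioxidant element core in capitals are shown, for the catalytic subunits Psmb5 and Psmb6 and for Psmd12, the gene called in UNC0642 against WT. Each is written 5′ to 3′ on the strand of its gene and lies before the transcription start. The stretch of Psmb5 is chr14:54618003-54618062 (minus strand), that of Psmb6 chr11:70525297-70525356 (plus strand) and that of Psmd12 chr11:107479278-107479337 (plus strand). In Psmd12 the motif is read on the opposite strand and starts 247 bases before the start of transcription, against 47 for Psmb5 and 9 for Psmb6.
Psmb5: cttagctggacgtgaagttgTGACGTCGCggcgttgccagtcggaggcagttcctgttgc
Psmb6: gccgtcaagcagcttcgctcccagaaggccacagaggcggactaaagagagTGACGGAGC
Psmd12: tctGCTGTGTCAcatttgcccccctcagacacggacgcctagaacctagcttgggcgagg

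Since none of the 47 genes passed the threshold in Tau against WT, the calls say nothing of the 6 genes with the antioxidant element core. Their log2 fold changes in Tau against WT were 0.17 (Psmb5), 0.10 (Psmb6), 0.15 (Psmc6), 0.11 (Psmd9), 0.19 (Psmd12) and -0.17 (Psme4), beside the median of 0.11 over the 47 genes.

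WT replicate 2, where 29 of the proteasome genes were lowest, was also lowest in all 8 oligodendrocyte markers (1489 CPM in sum). Of the 6 neuronal markers it was lowest in 1 and highest in 1, and their median deviation was -0.11 there and -0.10 in UNC0642 replicate 2, where the proteasome genes stood at 0.07. Of the 5 meningeal fibroblast markers tested 4 were highest in WT replicate 2, with a median deviation of 0.54 on the log2 scale. Tau replicate 2, with the highest oligodendrocyte level, had a median deviation of 0.02 in the proteasome genes.

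Between the groups, all 5 endothelial and all 5 blood markers had negative log2 fold changes in Tau against WT, with medians of -0.35 and -0.60, and 3 and 2 of them passed the threshold. Over all genes tested, 6.1% passed it as lower and 3.72% as higher. The summed levels were 126 and 114 CPM in WT and 87.6 and 91.3 CPM in Tau for endothelial markers, and 60.7 and 63.4 CPM against 39.7 and 39.0 CPM for blood markers. Without the library labelled WT replicate 1, the called genes Cldn5, Flt1 and Tek stood at -0.84, -0.34 and -0.32. Without WT replicate 2 they stood at -1.33, -0.36 and -0.59. The called blood genes Hbb-bs and Alas2 stood at -0.73 and -0.42, and at -0.64 and -0.74, in the same order. All 8 oligodendrocyte and 7 of the 8 microglial markers had positive log2 fold changes, with medians of 0.80 and 0.23, and 4 and 2 passed. Summed oligodendrocyte levels overlapped, at 3025 and 1489 CPM in WT and 2095 and 5667 CPM in Tau. Without the library labelled WT replicate 1, the called genes Mobp, Mag, Mal and Cldn11 stood at 1.68, 1.38, 1.47 and 1.13. Without WT replicate 2 they stood at 0.64, 0.40, 0.51 and 0.53. The called microglial genes Tmem119 and C1qa stood at 0.23 and 0.46, and at 0.64 and 0.30, in the same order. Astrocyte markers summed to 1605 to 1816 CPM over the 6 libraries. The part of cell composition in the proteasome values was not tested.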

How the data were processed

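RNA of the PFC was sequenced by the authors in 6 libraries, biological duplicates of 3 groups, as stranded libraries depleted of ribosomal RNA. The notes and methods name Cutadapt for trimming, TopHat2 for alignment (stated to be to RefSeq mRNAs) and featureCounts for counting. The deposited values are raw counts per gene with no normalization, and the submitters' processing notes name the build mm10. Whether counting used strand, and how reads with several matches were treated, is not given in the sources used here. In 2 files, 26 symbols stood as dates and were joined by position.

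Counts were fitted with edgeR 4.0.16 in R 4.3.3 (filterByExpr with a minimum count of 10, TMM scaling, quasi-likelihood test, a mean per group). The 20409 genes tested share 3 residual degrees of freedom and a biological coefficient of variation of 12.3%, and 3 counts equal 0.107 to 0.178 CPM. Adjusted p-values (Benjamini-Hochberg) run over all of these genes. A gene was called with an unadjusted p under 0.05 and at least a 1.2-fold difference, as in the study. SEs and 95% intervals come from the model. An exact permutation test of 2 against 2 libraries cannot go below p = 0.333. Levels per kilobase use the length of all annotated exons of a gene in GENCODE M21, which can be longer than its longest coding transcript. Copies were found with blastn 2.17.0 (at least 95% identity over 200 bases), and the coding sequences were aligned with Biopython 1.88. The script was checked on simulated data.

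The members and gene lists were chosen with earlier results of these data known. Values per library are given for genes called in any comparison, the catalytic pairs, the smallest p-values and genes under the filter, and other genes of the lists are named where called. CPM, used throughout, is the count relative to the TMM-scaled library size, as edgeR gives it. Psmc1, Psmc2, Psmd7, Psme4, Psmb4 and the genes with near-identical copies were added after their values were seen, as were the levels with copies and the fits of other genes without each WT library. Alternatives were DESeq2 1.42.0, limma-voom (limma 3.58.1), other scalings and filters, a replicate block, a term for sex-linked expression, fits of the 2 groups compared, other thresholds and leaving out each library. Same-numbered replicates are different mice. Some genes of the lists are not reported here.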

Additional observations from a re-analysis of the deposited data

How the results depend on the processing

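By edgeR no proteasome gene was called in Tau against WT or UNC0642 against Tau, and 1 in UNC0642 against WT. These counts held with DESeq2 size factors, library size alone, at least 10 counts in every library, DESeq2, limma-voom and fits of the 2 groups alone. In Tau against WT the count was 1 with no filter (Psmb11), 4 with no fold limit, 8 with a term for sex-linked expression, and 0 to 8 with 1 library left out (8 without the library labelled WT replicate 1, Psmb11 without WT replicate 2, Psmd7 without Tau replicate 1). In UNC0642 against Tau it was 1 with the sex-linked term (Psma2, lower) and 0 to 1 with a library left out (Psmd11 without UNC0642 replicate 1 and Psmb5 without UNC0642 replicate 2). In UNC0642 against WT it was 0 with the sex-linked term, with adjusted p-values and at 1.5-fold, 2 with near-identical copies added, 8 with no fold limit, and 0 to 11 with a library left out (11 without the library labelled WT replicate 1, 0 without WT replicate 2, and Psma1 in place of Psmd12 without UNC0642 replicate 1). The term for sex-linked expression leaves Tau compared mainly with WT replicate 2, and UNC0642 with the library labelled WT replicate 1.

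The median log2 fold change in Tau against WT was 0.0392 with library size alone (30 genes higher and 17 lower, where the median of all genes was -0.07), 0.18 with the sex-linked term, and 0.0388 to 0.19 with a library left out. In UNC0642 against Tau it was -0.12 with the sex-linked term, and -0.01 to 0.03 with a library left out. In UNC0642 against WT it was 0.0494 with the sex-linked term and 0.0448 to 0.19 with a library left out. The replicate block gave counts of 0, 0 and 1 and medians of 0.11, 0.03 and 0.13 and changed no call. Same-numbered libraries did not deviate together (correlations of -0.034, -0.021 and -0.003), so they share only a number.

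Of the log2 fold changes of single genes that exceeded their SE, 1023 alternative values kept direction and call, 30 gained and 3 lost the call, and 13 turned sign. In Tau against WT Psmb11 turned to 0.0658 with the sex-linked term, and ran from -2.20 (without WT replicate 2) to 0.21 (without the library labelled WT replicate 1). In UNC0642 against Tau the sex-linked term turned Psma3 to -0.0812, Psmc3 to -0.039, Psmd6 to -0.10, Psmd12 to -0.0365 and Psmd9 to -0.0278, and adding copies turned Psmb5 to 0.15. In UNC0642 against WT Psma4 turned to -0.0056 with the sex-linked term and ran from -0.0070 without WT replicate 2 to 0.36 without the library labelled WT replicate 1. Psmd8 turned to -0.0032 and ran from -0.0020 to 0.27 in the same way, and Psmb11 ran from -1.66 to 0.73. The cause of these changes was not tested beyond the construction of each alternative. Depth limits Psma8, Psmb8, Psmb9, Psmb11, Psme2 and Psmg4, which had under 140 counts in each library.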
